A study of Rattus norvegicus with 4 samples.

Results

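The miR-10, miR-99/100 and miR-125 families were examined in small RNA of serum exosomes (Exos), the nanoscale vesicles that cells release into blood. Members were taken by name: rno-miR-10a-5p, rno-miR-10b-5p, rno-miR-99a-5p, rno-miR-99b-5p, rno-miR-99b-3p, rno-miR-100-5p, rno-miR-125a-5p, rno-miR-125a-3p, rno-miR-125b-5p and rno-miR-125b-1-3p (the species prefix is left out below). Of these 10 names, 9 were among the 243 miRNAs of the deposited values, and miR-10b-5p was not analysed here. The study isolated Exos from adult male SD rats, either trained for several weeks on a level treadmill or kept sedentary. Small RNA libraries numbered 4, of which 2 carry the treatment label exercise and 2 the label sedentary. The series text gives 20 rats per group, and how rats were combined into a library is not stated in the sources used here, so each p-value covers only the spread between these libraries. The letters at the start of the titles could be read the other way round from the treatment labels: E opens the titles of the sedentary libraries and N those of the exercise libraries. The sources used here conflict on which libraries came from trained rats, so the labels may be exchanged. Below, exercise and sedentary libraries name the treatment label only, and every direction between them is uncertain: it would turn if the labels are exchanged.

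MicroRNAs are short RNAs that bind messenger RNAs through a seed at their 5′ end and lower the output of those messages. The miR-10, miR-99/100 and miR-125 families descend from a common ancestral miRNA. The genes of miR-10 sit inside Hox clusters, the arrays of transcription factor genes that pattern the body axis, and miR-10 is abundant in tissues that keep Hox expression in the adult. The miR-99/100 and miR-125 genes lie next to let-7 genes in conserved clusters and are known from work on growth control (miR-99/100, with mTOR as a well-studied target) and on blood cell development (miR-125). A hairpin precursor gives a 5p and a 3p arm, of which usually the 5p arm is kept as the guide in these families.

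The sequences show why the 5p guides form 3 seed groups. Capitals mark the seed, bases 2 to 8, in the sequences as the authors list them, with T in place of U:
miR-10a-5p: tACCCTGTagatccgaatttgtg
miR-99a-5p: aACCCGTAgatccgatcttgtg
miR-99b-5p: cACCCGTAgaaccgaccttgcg
miR-100-5p: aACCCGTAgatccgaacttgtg
miR-125a-5p: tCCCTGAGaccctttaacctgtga
miR-125b-5p: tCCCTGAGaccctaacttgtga

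miR-10a-5p had its seed to itself among the listed miRNAs, while miR-99a-5p, miR-99b-5p and miR-100-5p shared one and miR-125a-5p and miR-125b-5p another. The miR-125 seed also occurred in miR-351-5p, which is no member and held 57 reads in replicate 2 of the exercise libraries, 7 reads in replicate 2 of the sedentary ones and 0 in the others. Counted from the 5′ end, miR-99a-5p and miR-100-5p differed by a single substitution, T16A, so how their reads were divided depends on the counting and both levels are uncertain to that extent. miR-125a-5p and miR-125b-5p lay 3 edits apart, and miR-10a-5p lay 3 edits from its closest listed relative, miR-100-5p. The mature miR-10b-5p of RefSeq (GRCr8), cCCTGTAGaaccgaatttgtgt, starts 2 bases further into the stretch it shares with miR-10a-5p and differs from it there by T12A, counted in miR-10a-5p. Where RefSeq had a mature entry for a listed member (8 of 9), its sequence was identical to the deposited one.

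The hairpins show which arms come from the same precursor and are given from RefSeq, build GRCr8, with the listed arms in capitals. The authors aligned to another build, mRatBN7.2:
Mir10a, chr10:81779709-81779818, plus strand: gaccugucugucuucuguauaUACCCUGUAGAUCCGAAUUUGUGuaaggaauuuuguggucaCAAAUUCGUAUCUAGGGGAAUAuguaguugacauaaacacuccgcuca
Mir99b, chr1:67350064-67350133, plus strand: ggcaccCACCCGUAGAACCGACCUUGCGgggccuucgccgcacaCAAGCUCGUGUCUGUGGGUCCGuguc
Mir125a, chr1:67350675-67350759, plus strand: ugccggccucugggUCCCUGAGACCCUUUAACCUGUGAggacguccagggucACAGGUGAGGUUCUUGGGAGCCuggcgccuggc
Mir125b1, chr8:50850036-50850122, plus strand: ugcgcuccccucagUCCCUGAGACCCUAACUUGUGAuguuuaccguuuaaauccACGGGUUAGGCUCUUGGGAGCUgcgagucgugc

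In the gene table of that assembly, Mir10a lies between Hoxb5 and Hoxb4, and Mir10b within the span of Hoxd4. Mir99b and Mir125a flank Mirlet7e within the span of Spaca6. Mir100, Mirlet7a-2 and Mir125b1 follow each other within the span of Mir100hgl, a long noncoding RNA gene, and Mir99a, Mirlet7c1 and Mir125b2 follow each other on chromosome 11. miR-125b-5p can come from either Mir125b1 or Mir125b2, so its reads cannot be assigned to a hairpin, whereas its 3p arms can.

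The values are RPM, reads of a miRNA relative to a fixed number of library reads, not scaled for length, and the listed members are 22 to 24 nt long. Taking the smallest value of each library as 1 read, the library totals were 20780612 to 22140315 reads, of which 2.93% to 3.92% fell on the listed miRNAs. Reads were not collapsed by molecular identifiers as far as the sources state, so the intervals and floors below cover counting error only. Replicate libraries differed by far more than counting error, with a chi-square per degree of freedom of 44.0 between the exercise ones and 147 between the sedentary ones.

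miR-10a-5p dominated the families. It held 3482 and 3093 RPM in the exercise libraries and 4491 and 3179 RPM in the sedentary ones. By mean level it ranked 2 among the 243 listed miRNAs, and it made up 90.2% to 93.7% of the summed RPM of the members in each library. The highest library was sedentary replicate 1, while replicate 2 of that label lay between the exercise replicates.

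The miR-99/100 guides formed the next tier. miR-100-5p held 129 and 101 RPM in the exercise libraries and 106 and 76.9 RPM in the sedentary ones. miR-99a-5p held 85.7 and 67.6 RPM in the exercise libraries and 90.4 and 129 RPM in the sedentary ones. miR-99b-5p held 90.0 and 65.8 RPM in the exercise libraries and 89.8 and 85.8 RPM in the sedentary ones. The order of these 3 guides changed between libraries: in sedentary replicate 2 miR-99a-5p was the highest and miR-100-5p the lowest, and in the other libraries miR-100-5p was the highest. Their ranges over the 4 libraries overlapped, so their levels were not separated beyond that spread.

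The miR-125 guides were lower still and far less even. miR-125a-5p held 11.9 and 5.15 RPM in the exercise libraries and 9.95 and 23.7 RPM in the sedentary ones. miR-125b-5p held 4.19 and 1.72 RPM (92 and 38 reads) in the exercise libraries and 1.04 and 14.1 RPM (23 and 293 reads) in the sedentary ones. For both guides sedentary replicate 2 was the highest library, and the replicates of that label lay on both sides of the exercise values for miR-125b-5p.

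The 3p arms were far below the guides of miR-10 and miR-99/100, with miR-99b-3p at rank 123, miR-125b-1-3p at 139 and miR-125a-3p at 145 of the 243 listed miRNAs. miR-99b-3p held 1.138 and 0.994 RPM in the exercise libraries (25 and 22 reads) and 2.04 and 6.98 RPM in the sedentary ones (45 and 145 reads). miR-125a-3p had 0 reads in both exercise libraries and 2.18 and 4.62 RPM (48 and 96 reads) in the sedentary ones. miR-125b-1-3p held 3.32 and 0.903 RPM in the exercise libraries (73 and 20 reads), and 0 and 2.79 RPM (0 and 58 reads) in the sedentary ones. Of these arms, miR-99b-3p and miR-125a-3p had groups that did not overlap.

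**Figure D1:**
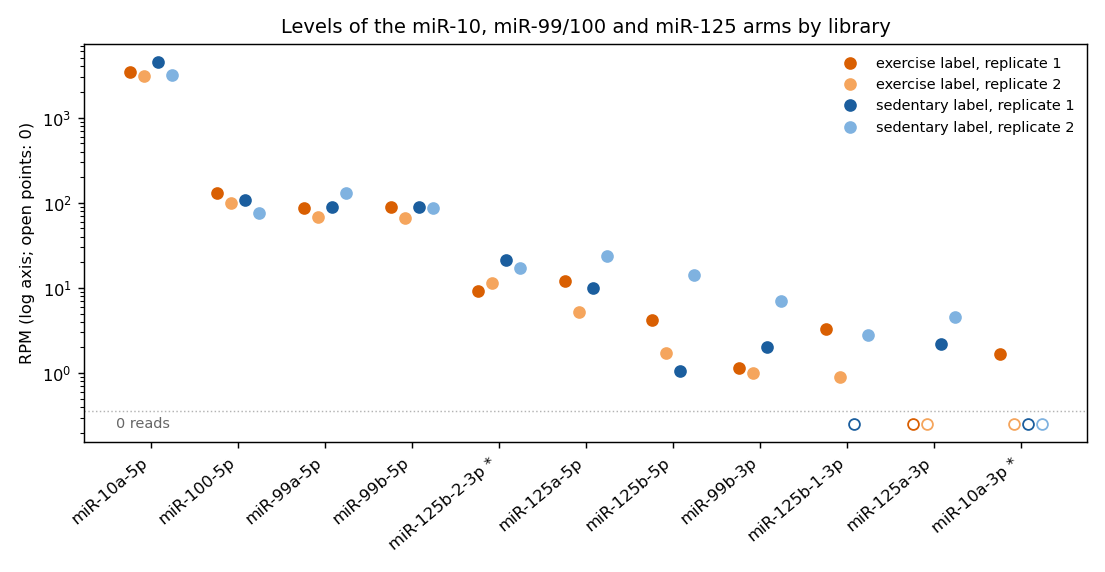
RPM (log axis) of the listed members and, with an asterisk, of the other arms miR-125b-2-3p and miR-10a-3p, ordered by mean level; each point is a library and open points at the bottom stand for 0 reads. miR-10a-5p sits at 3093 to 4491 RPM, the miR-99/100 guides at 65.8 to 129 RPM, and the miR-125 guides between 1.04 and 23.7 RPM.

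To compare the Hox-cluster miR-10 with its relatives independently of library scaling, the summed RPM of the 5p arms of each family were set against each other within each library. miR-10 exceeded miR-99/100 by 11.4-fold and 13.2-fold in the exercise libraries and by 15.7-fold and 10.9-fold in the sedentary ones. Over miR-125 it was 216-fold and 451-fold higher in the exercise libraries and 409-fold and 84.1-fold higher in the sedentary ones. miR-99/100 exceeded miR-125 by 18.9-fold and 34.1-fold, and by 26.1-fold and 7.72-fold, in the same order. The order of the families was thus the same in 4 of 4 libraries, for which the two-sided exact sign-flip test gave p = 0.125 for each of the 3 ratios (adjusted 0.125), the smallest value that 4 libraries allow. The ratio of miR-10 to miR-99/100 varied little, with an SD of 0.24 on the log2 scale around a mean of 3.66, while the ratios to miR-125 had an SD of 1.05 for miR-10 and 0.87 for miR-99/100. The low ratios to miR-125 came from sedentary replicate 2, where miR-125a-5p and miR-125b-5p were highest.

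None of the 3 ratios differed between the groups beyond the spread of the libraries. Ratios of miR-10 to miR-99/100 averaged 12.3 ± 1.26 (SD, n = 2) in the exercise libraries and 13.3 ± 3.38 (SD, n = 2) in the sedentary ones, with an exact permutation p of 1.0. For miR-10 to miR-125 and for miR-99/100 to miR-125 the exact permutation p was 0.67 each, and all 3 adjusted values were 1.0. With 2 libraries against 2, a two-sided exact permutation test cannot give a p below 0.33. The difference between groups in the ratio of miR-10 to miR-99/100, -0.088 on the log2 scale, turned to 0.17 without sedentary replicate 1 and to 0.016 without exercise replicate 1.

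**Figure D2:**
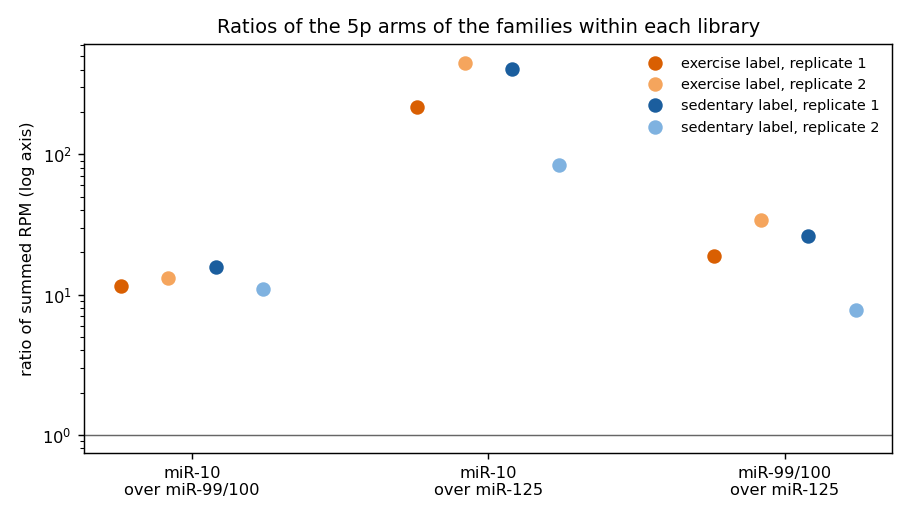
Ratio of the summed RPM of the 5p arms of each family to another family within each library (log axis; points are libraries, and the line marks equal levels). miR-10 over miR-99/100 lies between 10.9 and 15.7, whereas the ratios to miR-125 spread from 84.1 to 451 for miR-10 and from 7.72 to 34.1 for miR-99/100.

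The sums themselves did not separate the groups. miR-10 (miR-10a-5p alone) averaged 3288 ± 275 RPM (SD, n = 2) in the exercise libraries against 3835 ± 928 RPM (SD, n = 2) in the sedentary ones. The miR-99/100 guides summed to 269 ± 49.8 RPM (SD, n = 2) against 289 ± 3.67 RPM (SD, n = 2), and the miR-125 guides to 11.5 ± 6.54 RPM (SD, n = 2) against 24.4 ± 19.0 RPM (SD, n = 2). The differences were -0.20, -0.12 and -0.90 on the scale of log2(RPM + 1), with exact permutation p-values of 0.67, 1.0 and 0.67 (each 1.0 after adjustment over the 3 families). The first turned to 0.046 without sedentary replicate 1, and the second to 0.073 without exercise replicate 2. In the miR-125 sum, the difference was -0.048 without sedentary replicate 2 and -1.74 without sedentary replicate 1.

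limma was then used to compare log2(RPM + 1) between the groups for the 178 miRNAs above 0 in at least 2 libraries. A miRNA was called at an adjusted p under 0.05 with a fold change beyond 1 on that scale in either direction. All 9 listed members passed the filter, and limma called 0 of them, against 7.87% of all miRNAs tested (14 of 178; 5.06% higher and 2.81% lower in the exercise libraries). These were 9 higher and 5 lower calls. Median-of-ratios scaling gave 5 higher and 9 lower, of which 10 were among these 14. Scaling to the sum of the listed miRNAs gave 13 higher and 2 lower, of which 11 were among these 14. The members called stayed at 0 in both. At an unadjusted p under 0.05, 1 of the 9 passed, against 30.3% of all tested. That member was miR-125a-3p, which had 0 reads in both exercise libraries and passed the filter only through the sedentary ones, so the count is a description. Members had a median log2 fold change of -0.50, with 7 below 0 and 2 above, while the median of all tested miRNAs was 0.21, with 72 below 0 and 106 above. This scale understates the change of miRNAs with low values, and all signs rest on treatment labels that may be exchanged.

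For miR-10a-5p the log2 fold change, exercise label minus sedentary label, was -0.20 (standard error 0.20, limma adjusted p = 0.56), and the 95% interval of -0.71 to 0.30 lay within the fold threshold. Without sedentary replicate 2 its limma adjusted p was 0.018 at a fold change of -0.45, still short of the fold threshold, and without sedentary replicate 1 the value turned to 0.046. miR-99b-5p was also within the fold threshold, at -0.19 (interval -0.76 to 0.38, adjusted p = 0.62). Its value turned to 0.036 without exercise replicate 2 and to 0.078 with scaling to the sum of the listed miRNAs. With all libraries and the values scaled as deposited, miR-100-5p was the only guide with a positive value, 0.33 (interval -0.28 to 0.93, adjusted p = 0.45). Its value was 0.096 without sedentary replicate 2, 0.15 without exercise replicate 1, 0.50 without exercise replicate 2 and 0.56 without sedentary replicate 1. With all libraries, the intervals of these 3 guides lay within the fold threshold, whereas the other members had intervals that reached past it.

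miR-99a-5p, the near twin of miR-100-5p in sequence, differed by -0.50 on the log2 scale (standard error 0.26, limma adjusted p = 0.27). Its groups did not overlap, since both sedentary libraries lay above both exercise ones. Without sedentary replicate 1 the value was -0.76 with a limma adjusted p of 0.036, also short of the fold threshold. It was -0.24 with a limma adjusted p of 0.50 without sedentary replicate 2, and -0.33 with one of 0.805 without exercise replicate 2. With miR-99b-3p and miR-125a-3p it made up the 3 of 9 members that were lower without overlap in the exercise libraries, against 20.2% of all tested miRNAs (52.2% for either direction). Since miR-125a-3p passed the filter only through the group where it is high, its lack of overlap was fixed by the filter, and the count is a description. No member was higher without overlap, against 32.0% of all tested.

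miR-99b-3p differed by -1.26 (standard error 0.88, limma adjusted p = 0.43), and most of its difference lay in sedentary replicate 2: without that library it was -0.56, and without sedentary replicate 1 it was -1.95. miR-125a-3p had the largest value of the members, -2.08 (standard error 0.63, unadjusted p = 0.018, limma adjusted p = 0.10). It passed the filter only through the sedentary libraries, and over the 10 alternatives in which it could be fitted its value ranged from -5.04 to -0.42 and its limma adjusted p from 0.068 to 0.73. With the exercise mean set to a 3-read floor per library, its mean in the sedentary ones was 25.0-fold above that floor. The floor covers counting error only and is no firm minimum. Between the sedentary replicates, miR-125b-1-3p went from 0 to 58 reads. Among the 243 listed miRNAs, 2 had 0 reads in both exercise libraries and at least 40 reads in both sedentary ones, miR-125a-3p being among them, and 3 showed the reverse. With at least 20 reads the numbers were 2 and 10.

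The miR-125 guides and miR-125b-1-3p were not resolved. miR-125a-5p had a log2 fold change of -0.88 (interval -2.70 to 0.93, limma adjusted p = 0.48), and miR-125b-5p had -0.57 (interval -3.58 to 2.45, adjusted p = 0.81). The value of miR-125a-5p was -0.30 without sedentary replicate 2, -0.35 without exercise replicate 2, -1.42 without exercise replicate 1 and -1.47 without sedentary replicate 1. Without sedentary replicate 2 the value of miR-125b-5p turned to 0.88. miR-125b-1-3p had 0.56 (interval -1.75 to 2.87, adjusted p = 0.75), which turned to -0.40 without sedentary replicate 1 and to -0.033 without exercise replicate 1.

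**Figure D3:**
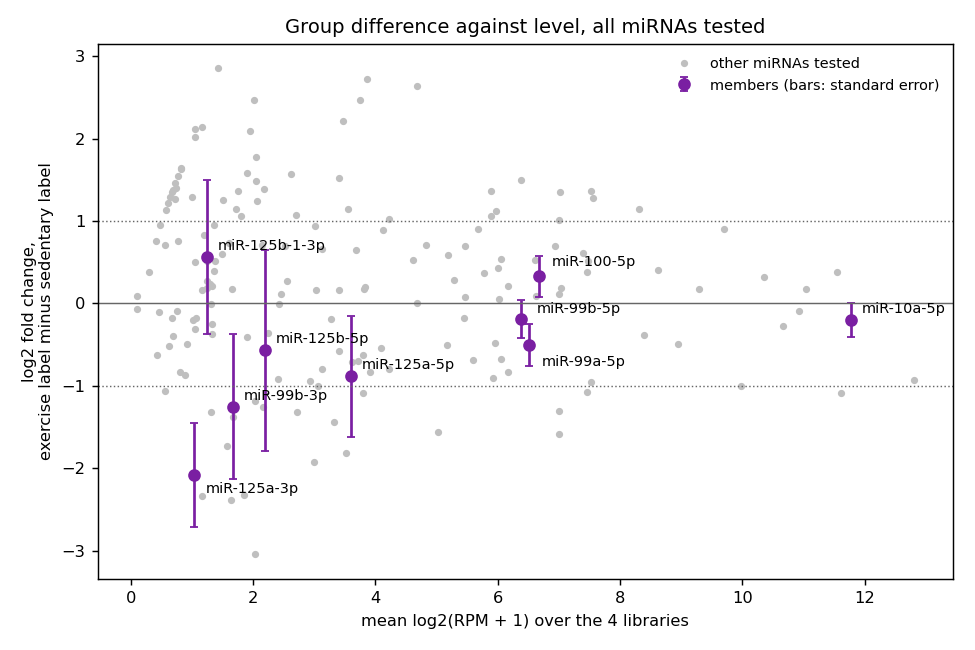
Log2 fold change (exercise label minus sedentary label) against mean log2(RPM + 1) over the 4 libraries for the 178 miRNAs tested, with members in purple, their standard errors as bars, and dotted lines at the fold threshold of 1. miR-10a-5p and the miR-99/100 guides lie within the dotted lines, and miR-125a-3p at -2.08 is the member farthest from 0.

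Arms of the same hairpin were compared within each library by the share of the 5p arm in the reads of both. For miR-125a the 5p arm took 262 of 262 and 114 of 114 reads in the exercise libraries. By counting error alone, its 3p arm could hold a share of up to 1.15% and 2.63% there. The spread between replicates is not part of these limits, so the true shares could be higher. In the sedentary libraries the 5p share was 82.0% (95% Wilson interval 77.0% to 86.2%) and 83.7% (80.5% to 86.5%). The groups did not overlap. Their mean difference of 17.1 percentage points sets the exercise shares at 100%, where 0 reads of the 3p arm put them, and so takes no account of the 3p shares those libraries allow. The two-sided exact permutation p was 0.33, the smallest this design allows. The separation of the shares restates the 0 reads of miR-125a-3p in both exercise libraries, and the levels of miR-125a-5p overlapped between the groups.

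For miR-99b the 5p share was 98.8% and 98.5% in the exercise libraries and 97.8% and 92.5% in the sedentary ones. The groups again did not overlap (exact permutation p = 0.33), but the difference of 3.51 percentage points fell to 0.86 without sedentary replicate 2 and rose to 6.16 without replicate 1. miR-10a was almost wholly 5p: miR-10a-3p had 37 reads in exercise replicate 1, where the 5p share was 99.95%, and 0 reads in the other libraries. By counting error alone, those would allow 3p shares of up to 0.00303% to 0.00454%, limits that exercise replicate 1 exceeded.

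The miR-125b precursors had more reads on a 3p arm than on the 5p guide. miR-125b-2-3p, which only Mir125b2 yields, has the sequence aCAAGTCAggctcttgggacct, with its seed in capitals. It held 9.24 and 11.5 RPM in the exercise libraries and 21.4 and 17.0 RPM in the sedentary ones. In 4 of 4 libraries it exceeded miR-125b-5p, by 2.21-fold and 6.71-fold in the exercise ones and by 20.5-fold and 1.21-fold in the sedentary ones, a comparison chosen after the values were seen and given as a description. The 5p share of all miR-125b reads was 25.0% (95% Wilson interval 20.8% to 29.7%) and 12.1% (8.97% to 16.2%) in the exercise libraries, and 4.65% (3.12% to 6.88%) and 41.6% (38.0% to 45.2%) in the sedentary ones. The shares differed between replicates by more than their intervals, and the groups overlapped (exact permutation p = 1.0). Between groups, miR-125b-2-3p itself had a log2 fold change of -0.83 (limma adjusted p = 0.36) and no overlap. miR-3588, whose gene overlaps Mir125b2, had 1 read in sedentary replicate 1 and 0 reads elsewhere. miR-3596a, whose gene overlaps Mirlet7a-2 in the cluster of Mir125b1, had 187 and 80 reads in the exercise libraries and 313 and 160 in the sedentary ones. Whether the authors' counting used strand is not stated in the sources used here.

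**Figure D4:**
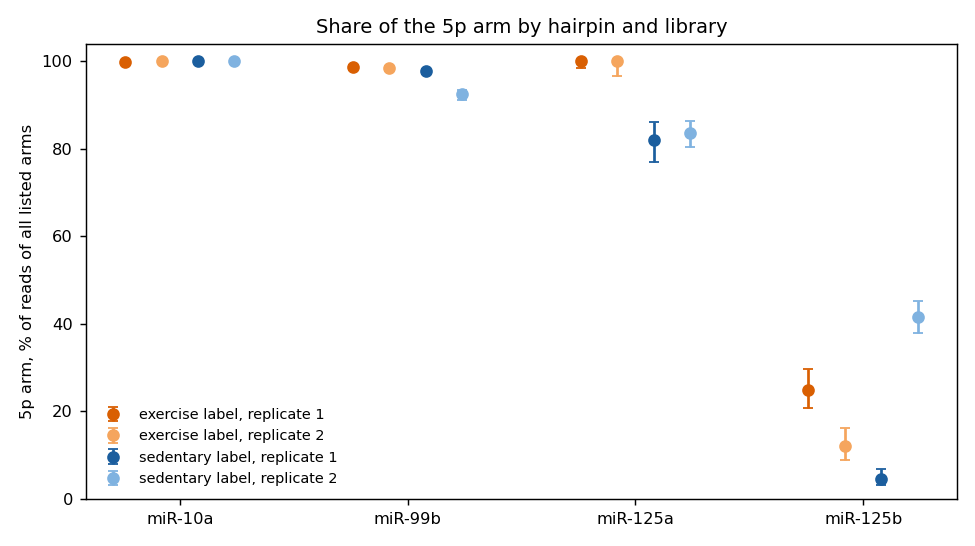
Share of reads on the 5p arm (%) among all listed arms of a hairpin, or of both miR-125b hairpins together, for each library, with 95% Wilson intervals for counting error. The miR-125a shares are 100% in the exercise libraries and 82.0% and 83.7% in the sedentary ones, and the miR-125b shares run from 4.65% to 41.6%.

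Several of the lower members varied between replicates, in both groups. In sedentary replicate 2, miR-125b-5p was 13.5 times, miR-99b-3p 3.41 times, miR-125a-5p 2.38 times and miR-125a-3p 2.12 times its level in replicate 1. Between the exercise replicates, miR-125b-1-3p differed by 3.68-fold, miR-125b-5p by 2.44-fold and miR-125a-5p by 2.32-fold. let-7e-5p, whose gene lies between Mir99b and Mir125a, was 2.81 times as high in sedentary replicate 2 as in replicate 1, at 24.5 against 8.72 RPM, whereas the exercise libraries held 8.46 and 8.81 RPM. miR-99b-5p, from the same cluster, was close between the sedentary replicates, with a ratio of 0.95. Over the 46 miRNAs at a mean of 1 to 30 RPM and above 0 in all libraries, the higher sedentary replicate exceeded the lower by a median of 1.89-fold, and 10% of them by more than 4.57-fold, a ratio that miR-125b-5p also exceeded. In the exercise libraries that median was 1.59.

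**Figure D5:**
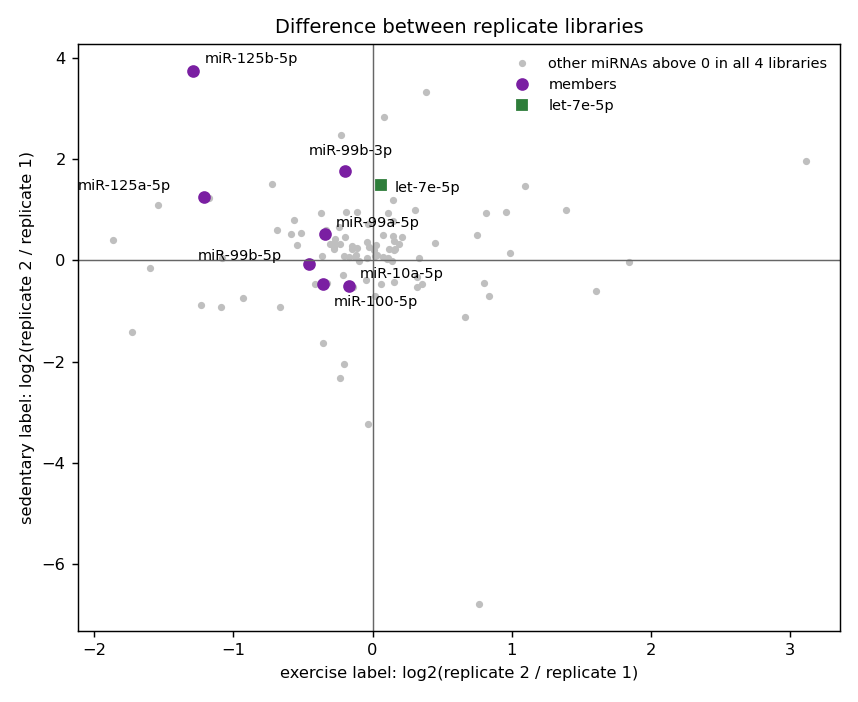
Log2 ratio of replicate 2 to replicate 1 for the sedentary libraries (vertical) against the exercise ones (horizontal), for miRNAs above 0 in all 4 libraries; members are purple and let-7e-5p is a green square. miR-10a-5p, miR-100-5p, miR-99a-5p and miR-99b-5p lie near the centre, and miR-125b-5p, at 13.5 times replicate 1, stands near the top.

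The let-7 guides encoded beside these families were compared as a list chosen with the families. let-7c-5p held 1869 to 1917 RPM in the exercise libraries and 1770 to 2283 RPM in the sedentary ones, and let-7a-5p, which several loci yield, held 643 to 693 and 585 to 598 RPM. limma called 0 of the 3 let-7 guides, against 7.87% of all tested miRNAs, and 0 passed at an unadjusted p under 0.05, against 30.3%. Their log2 fold changes were -0.087 for let-7c-5p, 0.17 for let-7a-5p and -0.71 for let-7e-5p (limma adjusted p = 0.78, 0.45 and 0.56). That of let-7e-5p was -0.013 without sedentary replicate 2 and -1.41 without sedentary replicate 1. let-7c-5p can come from another locus besides Mirlet7c1, so its level cannot be assigned to the Mir99a cluster. let-7e-5p lay below its neighbour miR-99b-5p in each library. Of the miR-196 arms, the other Hox-cluster miRNAs looked up, 0 of 6 were among the listed miRNAs and they were not analysed here.

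The pattern of miR-10a-5p over the 4 libraries was set against the 81 other miRNAs with a mean of at least 10 RPM, by the root-mean-square difference of centred log2(RPM + 1) values. The closest were miR-92a-3p (0.16), miR-99b-5p (0.18) and miR-143-3p (0.20). miR-92a-3p held 55.4 and 47.7 RPM in the exercise libraries and 79.7 and 65.3 RPM in the sedentary ones. miR-143-3p held 1495 and 1455 RPM against 1764 and 1812 RPM. With 4 libraries such likeness is a description only.

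Markers of cells that feed serum were read beside these values. The 5 red cell miRNAs (miR-486, miR-451-5p, miR-144-3p, miR-144-5p, miR-16-5p) were all listed and summed to 4806 to 5774 RPM in the exercise libraries and to 8768 to 11312 RPM in the sedentary ones, of which miR-486 was the bulk (log2 fold change -0.93, limma adjusted p = 0.043, short of the fold threshold). The other red cell miRNAs did not follow miR-486: miR-16-5p held 8.42 and 8.67 RPM in the exercise libraries against 0 and 1.97 RPM, miR-451-5p overlapped between the groups, and miR-144-3p and miR-144-5p were above 0 in 1 exercise library each and at 0 in the other 3 libraries. The 2 liver miRNAs summed to 810 to 821 RPM against 1462 to 1601 RPM, where miR-122-5p (log2 fold change -1.003, limma adjusted p = 0.017), 1 of the 14 miRNAs called, carried the difference and miR-192-5p (0.089) overlapped between the groups. Without overlap and lower in the exercise libraries were the markers miR-486, miR-122-5p and miR-206-3p, and the members miR-99a-5p, miR-99b-3p and miR-125a-3p. None of these members was called, and miR-125a-3p passed the filter only through the sedentary libraries. The markers miR-16-5p, miR-1-3p and miR-126a-5p were higher without overlap, and miR-126a-5p passed the filter only through the exercise libraries. Lower and higher together, 52.2% of all tested miRNAs had groups that did not overlap. The marker lists as a whole did not move one way, and the part of the markers in the members' values was not tested. The 3 platelet and vessel miRNAs summed to 68.7 to 72.5 RPM against 61.4 to 68.4 RPM, with miR-126a-5p at 0 in both sedentary libraries. The 3 muscle miRNAs summed to 449 to 495 RPM against 369 to 428 RPM, with miR-133a-3p at 0 in 3 libraries. miR-1-3p made up most of that sum (log2 fold change 0.41), and miR-206-3p went the other way, with 21.9 and 14.8 RPM in the exercise libraries against 41.6 and 72.9 RPM (-1.56, limma adjusted p = 0.074). In such samples, fewer vesicles from a cell type and less of a miRNA per vesicle cannot be told apart.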

How the data were processed

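Per the labels and the paper's methods, the authors trimmed reads with cutadapt, kept short reads, mapped these to the mRatBN7.2 genome, assigned them to miRBase miRNAs and deposited values that they name TPM. In the deposited table RPM refers to a read total beyond the miRNAs it lists. All non-zero values were whole multiples of the smallest value of their library (100%, tolerance 0.02 reads), which was taken as 1 read for depth, floors (3 reads) and Wilson intervals. Because the deposited values are described as normalized, no count model was fitted. In place of the authors' DESeq2, limma 3.58.1 in R 4.3.3 was fitted to log2(RPM + 1), with a variance prior that follows the mean. Benjamini-Hochberg adjustment ran over all 178 miRNAs tested. limma was also run on simulated data without added variation between replicates. That run cannot show how limma performs at the replicate spread seen here. Alternatives changed the pseudocount (0.1, 10), the filter, the scaling, the variance prior, the block and the libraries included. Family sums, ratios and arm shares were compared by exact two-sided tests over libraries in Python 3.11.15. Named miRNAs were the members, other arms of their hairpins, let-7 neighbours, miR-196, marker lists and the 3 closest to the most abundant member. miR-351-5p, miR-3588, miR-3596a and the comparison of miR-125b-2-3p with miR-125b-5p were added after the values were seen. Members and lists were chosen with earlier results of these data known.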

Additional observations from a re-analysis of the deposited data

How the results depend on the processing

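limma called 0 members under every alternative run. The 14 calls over all miRNAs (9 higher, 5 lower in the exercise libraries) became 3 (1 and 2) without the filter, which adds miRNAs to the adjustment, and 0 (0 and 0) with a single variance prior, where 50 passed at an unadjusted p under 0.05. Median-of-ratios scaling called 5 higher and 9 lower, keeping 10 of those 14, and scaling to the sum of the listed miRNAs gave 2 lower. The latter moved the median of all log2 fold changes from 0.21 to 0.44 and turned miR-10a-5p and the miR-10 sum to 0.066, miR-99b-5p to 0.078 and the miR-99/100 sum to 0.15, all below that median.

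With 1 library left out, where the lone library is assumed to vary like the other group, calls ranged from 0 to 39 (0 to 27 higher, 0 to 12 lower): 0 without exercise replicate 1 (19 at an unadjusted p under 0.05), 7 without exercise replicate 2, 30 without sedentary replicate 1 and 39 without sedentary replicate 2. Log2 differences then ranged from -0.45 to 0.046 for miR-10a-5p and the miR-10 sum, from -0.30 to 0.073 for the miR-99/100 sum, from -0.41 to 0.036 for miR-99b-5p, from -2.01 to 0.88 for miR-125b-5p and from -0.40 to 1.52 for miR-125b-1-3p. The ratios ranged from -0.35 to 0.17 (miR-10 to miR-99/100), from -0.40 to 1.79 (miR-10 to miR-125) and from -0.055 to 1.61 (miR-99/100 to miR-125). The cause of these changes was not tested.

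Replicate numbers did not pair the libraries (correlation of deviations -0.15 over 178 miRNAs). The replicate block called 18 miRNAs, and so did the crossed replicate block, chosen after seeing the data. Replicates differed beyond counting error, so depth alone does not set the precision.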
